A study of Mus musculus with 12 samples.

Results

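The Hox genes of the mouse were followed on 12 one-color Agilent arrays of hypothalamic RNA. All non-control probes whose gene name was Hox, then a, b, c or d, then a number, were taken, which gave 50 probes for 38 genes, of 41174 probes and 27827 gene names in all. The mice were male and of the ICR strain, and they were 3 weeks old when drinking tubes were introduced. Water-only mice had water in both tubes, and alcohol mice chose between a tube of water and a tube of 5% or 10% alcohol until adulthood. By the labels, 3 pools of RNA came from the water group, and 3 each from mice classed as low, early high and late high alcohol drinkers. A water pool held RNA of 3 mice. The pools of mice that drank less held RNA of 3 mice each and those of mice that drank more that of 1 or 2, so that pool size and low or high drinking cannot be told apart. The make-up of pools by alcohol concentration is known only under pool names that the labels do not carry, and it was not tied to single arrays here. The question was which Hox genes were detectable in this tissue, and whether their levels differed between alcohol and water mice or among the kinds of drinkers.

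Hox genes encode homeodomain transcription factors that give cells their position along the head-to-tail axis of the embryo. They lie in 4 clusters, Hoxa to Hoxd, and the members are numbered by paralog group, so that low numbers are expressed from the hindbrain backward and high numbers toward the tail. The hypothalamus is forebrain, and it lies in front of the region where Hox genes are known to pattern the nervous system. Hox proteins bind DNA together with TALE cofactors (Pbx, Meis and Pknox). Hox genes are switched on by retinoic acid, and they are kept silent in the forebrain by Polycomb complexes.

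Each probe was a 60-base oligo, and 12 of the 38 genes had a pair of probes. The probes whose values the results below turn on are shown with their first 30 bases, as the array files give them (5′ to 3′, no base marked), so that the member of a pair can be told from the other.
Hoxa3, probe A_52_P447935 (mm9 chr6:52120410-52120469, minus strand): agccctgtgcctcccggtgcaggaggctat
Hoxa3, probe A_51_P335169 (mm9 chr6:52119744-52119803, minus strand): ggtaatgcgtttttatagtttatgtgacgt
Hoxb6, probe A_52_P648750 (mm9 chr11:96160281-96160340, plus strand): ggtgctatttgacaattcctgcctctgcca
Hoxb6, probe A_51_P232207 (mm9 chr11:96162563-96162622, plus strand): tcgagtctcatttcgtccatgtcccccgtg
Hoxb4, probe A_52_P565957 (mm9 chr11:96181521-96181580, plus strand): atcggcgcatgaagtggaaaaaagaccaca
Hoxc4, probe A_51_P183481 (mm9 chr15:102866541-102866583, plus strand): ttctttccttctttagccttccttcccttt
Hoxc10, probe A_52_P351859 (mm9 chr15:102798021-102801269, plus strand): tcggataacgaagctaaagaggagataaag
Hoxc10, probe A_51_P375754 (mm9 chr15:102801857-102801916, plus strand): ggaaagaaagggggataatcaaacagagag
The interval given in the files was 60 bases long for 46 of the 50 probes. It was 43 bases for the Hoxc4 probe and 3249 bases for Hoxc10 probe A_52_P351859. Whether a probe lies in an exon or a UTR was not determined here, since no annotation of mm9 was used.

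Most Hox genes were at or near background in the hypothalamus. A probe was counted as detected where the scanner software marked its spot as well above background (the Hoxb1 probe had 10 spots, of which a share of at least 0.5 had to be so marked). Of the 50 Hox probes, 6 were detected on all 12 arrays (12%) and 22 on no array (44.0%). Over all 41174 probes these shares were 63.4% and 15.5%. By gene, taking the better probe, 6 of 38 genes were detected on all 12 arrays, 4 on 9 to 11 arrays, 15 on 1 to 8 arrays and 13 on no array.

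**Figure D1:**
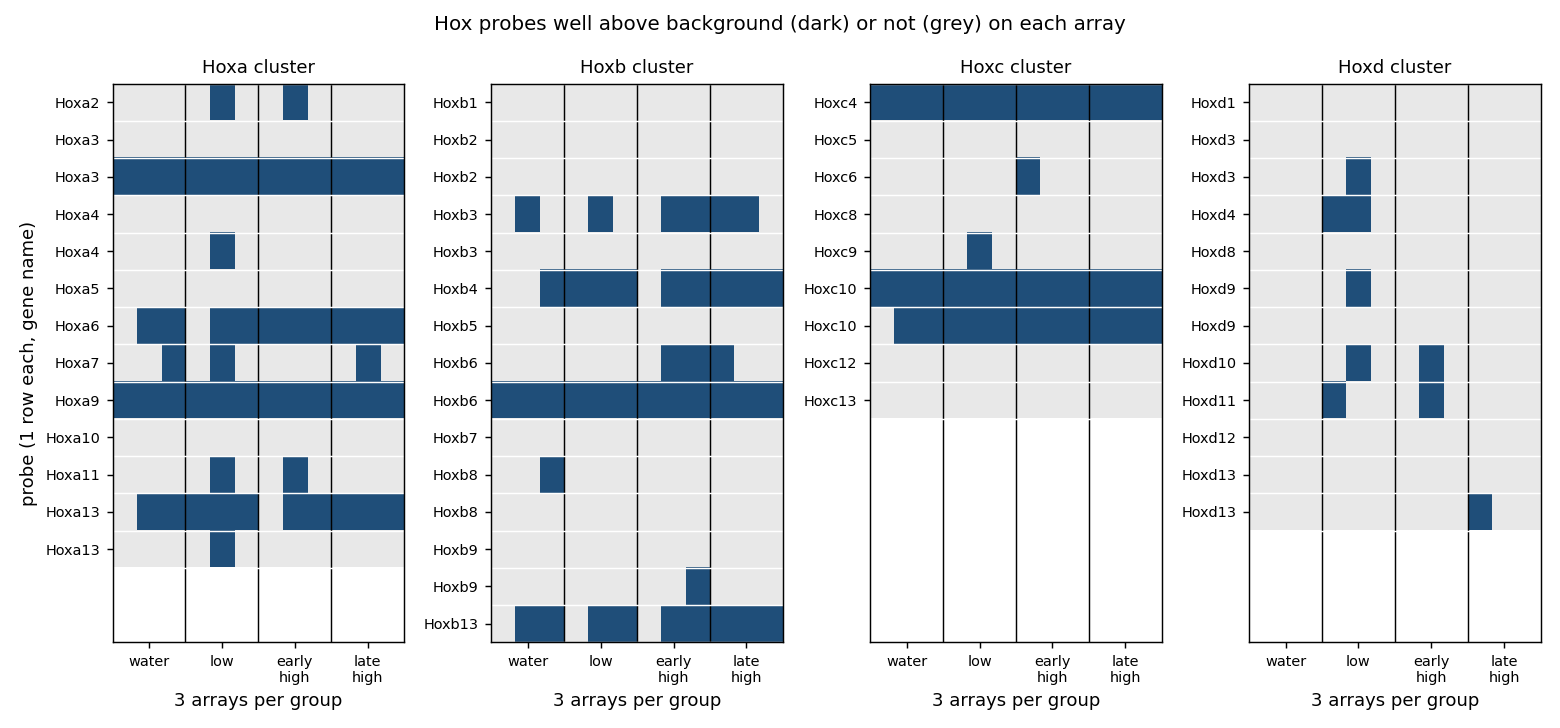
Detection of Hox probes on each of the 12 arrays, 1 panel per cluster and 1 line per probe in order of paralog group, with 3 arrays per group from water to late high drinkers. Dark cells mark a probe well above background. 5 of the probes drawn are dark across all arrays, and no Hoxd probe is dark on more than 2.

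The detected genes were spread over the Hoxa, Hoxb and Hoxc clusters. In the Hoxa cluster, 5 of 11 genes were detected on at least 9 arrays, among them Hoxa3 and Hoxa9 on all 12 and Hoxa6 and Hoxa13 on 10 each. In the Hoxb cluster these were 3 of 10 genes, with Hoxb6 on all 12 arrays and Hoxb4 and Hoxb13 on 9 each. In the Hoxc cluster they were Hoxc4 and Hoxc10, both on all 12 arrays, of 8 genes. None of the 9 Hoxd genes was detected on more than 2 arrays, and no Hoxd probe was detected in any water pool.

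Detection did not follow the order of the genes along the axis. On at least 9 arrays were 2 of 8 genes of paralog groups 1 to 3, 4 of 15 genes of groups 4 to 8, and 4 of 15 genes of groups 9 to 13. Hoxa13 and Hoxb13, which are known for the most tail-ward domains, were detected more often than Hoxb1, Hoxb2 and Hoxd1, which are known from the hindbrain. Other members went the other way, with Hoxa3 detected on all 12 arrays, Hoxd13 on 1 and Hoxc13 on none. The 13 genes detected on no array were Hoxa5, Hoxa10, Hoxb1, Hoxb2, Hoxb5, Hoxb7, Hoxc5, Hoxc8, Hoxc12, Hoxc13, Hoxd1, Hoxd8 and Hoxd12. The 15 genes detected on 1 to 8 arrays were led by Hoxb3 on 6 and Hoxa7 on 3. Hoxa2, Hoxa11, Hoxd4, Hoxd10 and Hoxd11 were detected on 2 arrays each, and Hoxa4, Hoxb8, Hoxb9, Hoxc6, Hoxc9, Hoxd3, Hoxd9 and Hoxd13 on 1 each.

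Of the 12 genes with a pair of probes, the probes of 4 (Hoxa3, Hoxa13, Hoxb3 and Hoxb6) were apart by more than 1 array in detection. Those of the other 8 were within 1 array of each other, but apart from Hoxc10 these were probes detected on at most 1 array. In none of the 12 genes were both probes detected on all 12 arrays. For Hoxa3, which patterns the neck and lower hindbrain, probe A_52_P447935 was detected on all 12 arrays with a median signal of 549, and probe A_51_P335169, 666 bases away, on none with a median of 8.4. For Hoxb6, probe A_52_P648750 was detected on all 12 arrays with a median signal of 605, and probe A_51_P232207, 2282 bases away, on 3 with a median of 24.9. For Hoxa13, probe A_51_P303316 was detected on 10 arrays and probe A_52_P71789 on 1, and for Hoxb3 1 probe was detected on 6 arrays and the other on none. The Hoxc10 probes were detected on 12 and 11 arrays. Hoxb2 was at background with both probes, of which A_51_P257789 lies on the minus strand and A_52_P15300 on the plus strand. The bright signals of Hoxa3, Hoxb6 and Hoxc4 therefore each rest on 1 probe. Those of Hoxb6 and Hoxc4 carry accessions that are not of RefSeq, so that the RefSeq gene table could not match them (46 of the 50 probes had a match there).

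Markers of the labelled tissue were mostly detected. Of 15 hypothalamic marker genes on the array, 13 were detected on all 12 arrays, among them Avp, Oxt, Hcrt, Pmch, Pomc and Nkx2-1. Sim1 was detected on 11 arrays, and Otp on none. Of 14 marker genes of hindbrain and spinal cord, 3 were detected on all 12 arrays (Fev, Glra1 and En2) and 5 on none, namely Slc6a5, Slc6a2, Lbx1, Tlx3 and En1. The summed level of these 14 genes, in units of the 75th percentile of the signal of each array, was 0.501 to 0.575 in the water pools, 0.579 to 0.896 in low drinkers, 0.615 to 0.696 in early high drinkers and 0.422 to 0.522 in late high drinkers. Since 5 of the 14 genes were detected on no array, these sums take in signals at background. The part of hindbrain and spinal cord cells in the Hox signals was not tested.

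1 array stood apart among the weak signals. Low drinker pool 2 had 22 of 50 Hox probes well above background, against 6 to 17 on the other 11 arrays. The median signal of the 50 Hox probes was 49.5 on it and 6.6 to 18.7 elsewhere, whereas the median of all probes was 245 on it and 195 to 231 elsewhere. Its lower quartile of the signal of all probes was 61.6, against 21.0 to 32.7 on the other arrays. It gave the highest of the 12 values for 33 of 50 Hox probes (66.0%) and for 36.4% of all probes. Groups were not spread evenly over the 3 slides, each with 4 arrays. All water pools were on slide 1, together with low drinker pool 1. Slide 2 carried pools 2 and 3 of the low and pools 1 and 2 of the early high drinkers. The remaining early high drinker pool shared slide 3 with all late high drinkers. Slide 1 was scanned on another day than slides 2 and 3. All alcohol pools but low drinker pool 1 thus differed from water in both slide and scan day. The lowest signal of an array was 10.26 and 10.59 for low drinker pools 2 and 3, 8.87 for early high drinker pool 1, and 3.91 to 6.57 for the others.

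**Figure D2:**
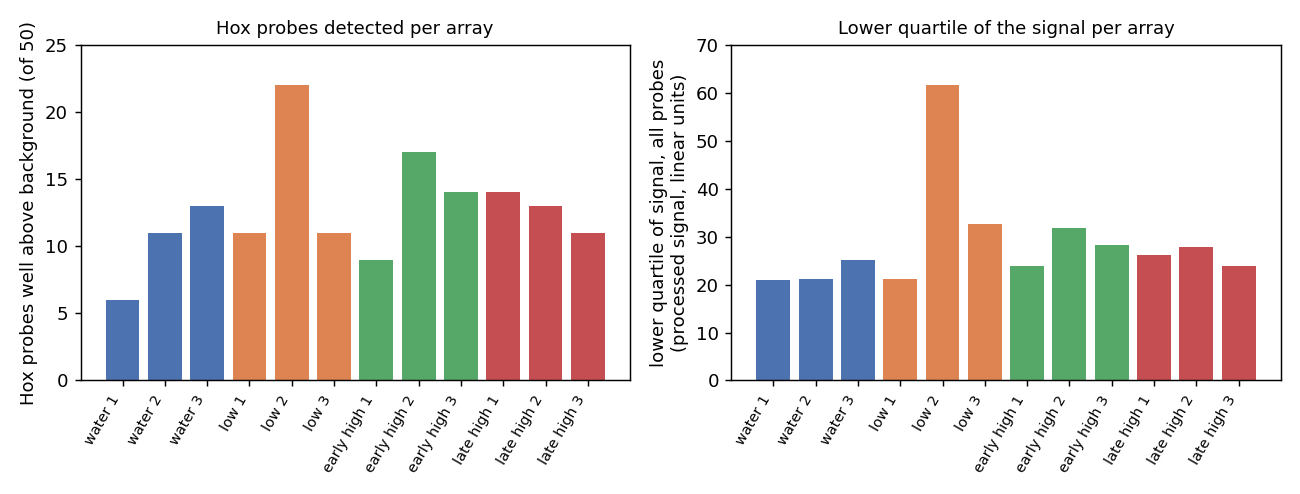
Left, the number of the 50 Hox probes well above background on each array, and right, the lower quartile of the processed signal over all probes (linear units). Bars are colored by group. Low drinker pool 2 has the highest bar in both panels, 22 probes and a quartile of 61.6.

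By group, 6, 10 and 12 Hox genes were detected in the 3 water pools, 10, 20 and 10 in the low drinker pools, 8, 15 and 12 in the early high drinker pools, and 12, 12 and 10 in the late high drinker pools. The groups overlapped. The Hoxc cluster varied least, with 2 or 3 genes detected on every array. The Hoxd cluster had 0 genes in each water pool, 2, 4 and 0 in the low drinker pools, 0, 2 and 0 in the early high drinker pools and 1, 0 and 0 in the late high drinker pools. Some of these were bright on a single array. Hoxd4 had a signal of 180.7 in low drinker pool 1, 52.8 in pool 2 and 4.1 to 11 on the other 10 arrays, and Hoxd11 had 99.7 in low drinker pool 1 and 4.9 to 30.2 elsewhere. Hoxc6 had 78.2 in early high drinker pool 1 and 4.4 to 11.8 elsewhere.

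Alcohol was first compared with water, 9 arrays against 3, on log2 signals scaled to the 75th percentile of each array. Values below are signals on the linear scale, and differences are log2 differences of the scaled signals. Only 15 of the 50 probes, of 13 genes, had enough values above noise in both groups to be tested, and 35 were not tested. With signal over noise taken instead as mean signal over background, 36 Hox probes could be tested, of which 31 were above 0 with a median of 1.01 (0.04 over all probes), and 5 passed, 4 of them higher, against 6.35% of all probes. Of the 15, 4 had an unadjusted p under 0.05 by limma, which is called passing here, 3 higher and 1 lower in alcohol mice. Over the 32376 probes tested, 5.53% passed, 3.85% higher and 1.68% lower. None passed after Benjamini-Hochberg adjustment, among Hox genes or among all probes, and the lowest adjusted p was 0.819. 12 of the 15 Hox differences were above 0, with a median of 0.56, against 59.6% and 0.03 over all probes. Over the 6 Hox probes well above background on every array, 3 were above 0 and the median was -0.08. With quantile normalization 9 of 15 were above 0, and the share of higher probes among all those passing went from 69.6% to 50.2%. With no scaling that share was 81.1%. With the slide as a fixed block, where low drinker pool 1 is the only alcohol array beside water arrays, 7 of 15 were above 0 and none passed. Without water pool 1 the count was 1 of 15. Without water pool 2 it was 2 of 13, with a median of 0.33, and without water pool 3 it was 3 of 13, with a median of 0.25. Without low drinker pool 2 it was 6 of 15, with a median of 0.31.

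Hoxb4, a gene of the lower hindbrain and spinal cord that also drives growth of blood stem cells, had the lowest p of the Hox genes. Its signal was 14.4, 14.8 and 27.3 in the water pools, 41.3, 208 and 125 in low drinkers, 32.4, 44.1 and 101 in early high drinkers, and 60.8, 50.9 and 84.6 in late high drinkers. Every alcohol pool was above every water pool. The difference was 1.96 ± 0.51 (SE), 3.88-fold, with an adjusted p of 0.819 by limma. The exact permutation test over all 220 ways to choose 3 arrays gave a two-sided p of 0.00909. That test takes no account of slide or scan day, which water shared with low drinker pool 1 alone. Hoxb4 was detected in 1 of 3 water pools and 8 of 9 alcohol pools. Without low drinker pool 2 the difference was 1.74. On slide 1 alone, low drinker pool 1 was above the mean of the water pools by 1.16, and with the slide as a fixed block Hoxb4 did not pass.

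The 11 Hox probes with a value on every array included 2 whose alcohol arrays all lay above the water arrays, Hoxb4 and Hoxa13. Over all 29521 such probes, 0.982% lay higher in this way, and 0.325% lower. For Hoxa13, a gene of limb ends and the urogenital tract, the signal was 32.6, 33.6 and 34.2 in the water pools and 41.1, 233 and 103 in low drinkers. It was 40.8, 62.5 and 78 in early high drinkers and 54.7, 68.9 and 59.9 in late high drinkers. The alcohol values began just above the water values, and low drinker pool 2 was the highest. The difference was 1.08 ± 0.46 (exact permutation p = 0.0455, adjusted p = 0.819 by limma), and it was 0.84 without low drinker pool 2. On slide 1 alone, low drinker pool 1 was above water by 0.26. It no longer passed limma's test without water pool 1, 2 or 3, without low drinker pool 3 or without early high drinker pool 3 (differences of 1.04, 1.13, 1.06, 0.99 and 1.07). The second Hoxa13 probe was not tested.

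Hoxc10, which is known from the lumbar spinal cord and hindlimb, was higher in most alcohol pools with both probes. Probe A_52_P351859 had signals of 30.9, 43.9 and 48.3 in the water pools, 34.3, 291 and 134 in low drinkers, 91.1, 94.1 and 90.1 in early high drinkers, and 145, 77.0 and 86.2 in late high drinkers. Probe A_51_P375754 had 39.8, 48.0 and 44.7 in the water pools, 37.4, 378 and 167 in low drinkers, 122, 81.3 and 111 in early high drinkers, and 80.4, 97.4 and 64.9 in late high drinkers. With either probe, 8 of 9 alcohol pools were above all water pools and low drinker pool 1 lay among or below them. The differences were 1.30 ± 0.50 (exact permutation p = 0.0409) and 1.22 ± 0.56 (exact permutation p = 0.0727), both with an adjusted p of 0.819 by limma, and only the first passed limma's test unadjusted. On slide 1 alone both probes were lower in low drinker pool 1 than in water, by -0.27 each, and with the slide as a block that was the value of the whole comparison. Without low drinker pool 2 the differences were 1.09 and 0.97, and the second probe then passed. Without water pool 1 the first probe did not pass.

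**Figure D3:**
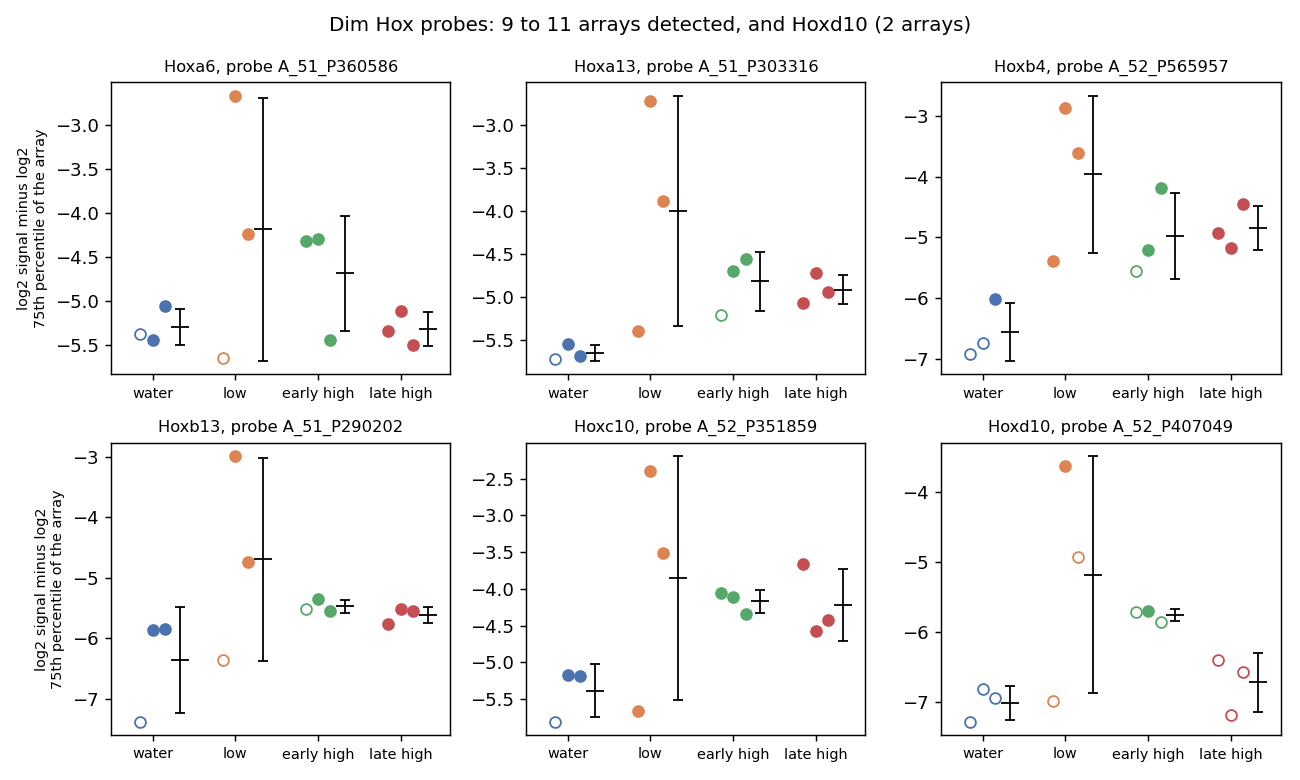
Scaled log2 signals of the 5 Hox probes detected on 9 to 11 arrays and of Hoxd10, by group. Filled points are arrays where the probe was well above background and open points those where it was not, and the bars are means ± SD (n = 3). Every alcohol point lies above every water point for Hoxb4 and Hoxa13, and low drinker pool 2 is the highest point in each of the 6 panels.

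Hoxa3 was the only Hox gene that passed on the lower side in alcohol mice, before adjustment. Its bright probe, A_52_P447935, had signals of 729, 602 and 584 in the water pools, 564, 561 and 468 in low drinkers, 512, 506 and 649.9 in early high drinkers, and 536, 502 and 480.3 in late high drinkers. The scaled groups overlapped, since water pool 3 lay within the alcohol range. The difference was -0.27 ± 0.11 (exact permutation p = 0.0364, adjusted p = 0.819 by limma), a 1.21-fold lower level. All 9 alcohol pools were below the water mean. Without water pool 1 the difference was -0.19, without water pool 2 it was -0.26, a fixed slide block gave -0.21, and in none of the 3 did it pass.

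The other well-detected genes did not pass the test. Hoxa9, known from the thoracic cord and from blood cell precursors, had 126, 136 and 121 in the water pools, 137, 165 and 139 in low drinkers, 105.2, 138 and 144 in early high drinkers, and 142, 130.5 and 140.3 in late high drinkers. The difference was 0.10 ± 0.12 (exact permutation p = 0.459), and 0.05 without low drinker pool 2. The bright Hoxb6 probe had 596, 538 and 789 in the water pools, 710.1, 590.3 and 608 in low drinkers, 791, 650.5 and 580.5 in early high drinkers, and 602, 723 and 585 in late high drinkers. The difference was 0.02 ± 0.15 (exact permutation p = 0.855). For both genes the groups overlapped widely.

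Hoxc4, a gene of the neck region, had signals of 391, 391 and 372 in the water pools, 397, 342 and 348 in low drinkers, 312, 413 and 336 in early high drinkers, and 290.0, 264 and 309 in late high drinkers. The late high drinkers were the 3 lowest arrays, and the other groups overlapped. Over all alcohol pools the difference from water was -0.22 ± 0.16 (exact permutation p = 0.259). Hoxa6 had 41.8, 36.5 and 52.9 in the water pools, 34.6, 242 and 81.3 in low drinkers, 76.2, 83.0 and 42.3 in early high drinkers, and 45.7, 52.9 and 41.2 in late high drinkers. Hoxb13 had 10.4, 27.2 and 30.5 in the water pools, 21.1, 192 and 57.5 in low drinkers, 33, 39.9 and 39.3 in early high drinkers, and 33.9, 39.8 and 39.4 in late high drinkers. Low drinker pool 2 was the highest array for both. The differences were 0.56 ± 0.53 for Hoxa6 (exact permutation p = 0.386) and 0.59 ± 0.64 for Hoxb13, and without low drinker pool 2 they were 0.31 for each. In the limma fit of Hoxb13 water pool 1 was left out as below noise. Over all 12 arrays the difference of Hoxb13 was 1.102 (exact permutation p = 0.132).

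**Figure D4:**
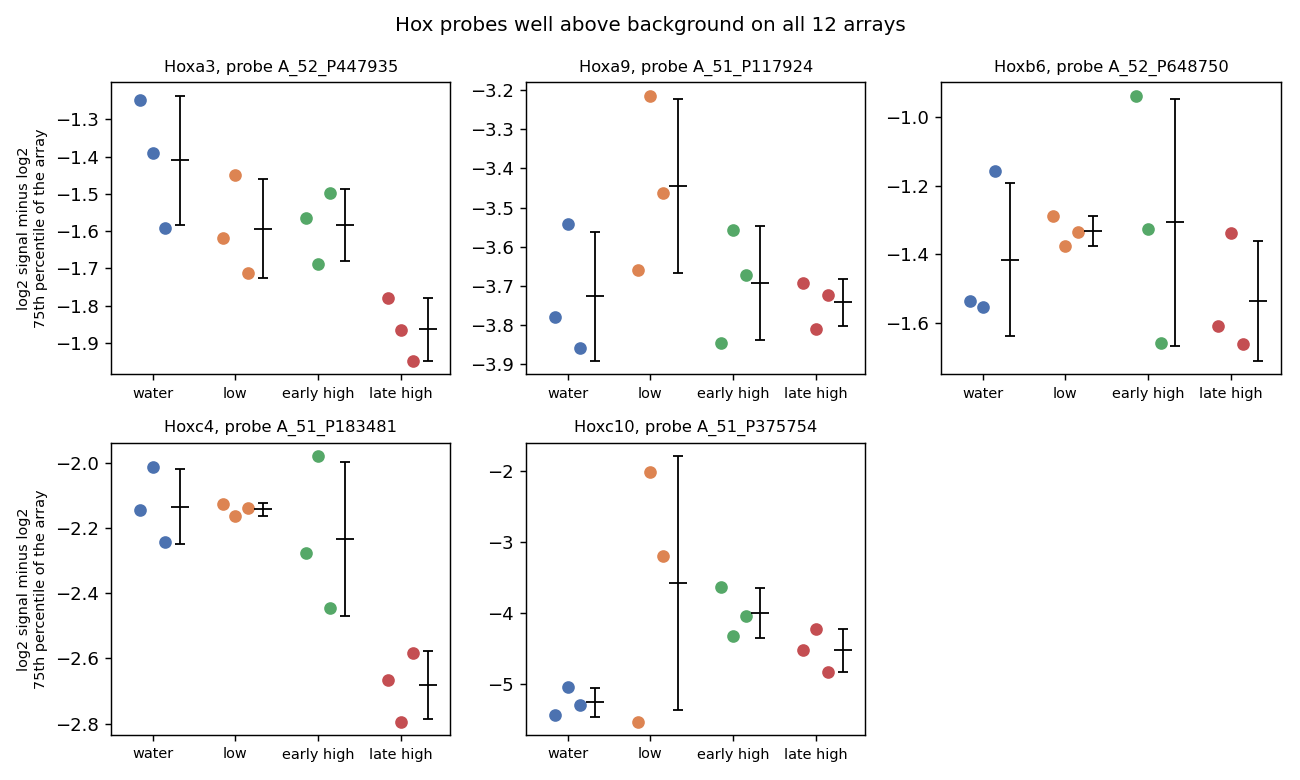
Scaled log2 signals of 5 Hox probes well above background on all 12 arrays, by group, each panel with its own scale. Points are arrays and bars are means ± SD (n = 3). Late high drinkers are the lowest points for Hoxa3 and Hoxc4, and low drinker pool 2 is the highest for Hoxc10 and Hoxa9.

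Each kind of drinker was then set against water in a fit with 4 group means, in which all 12 arrays share 1 estimate of the spread. The 3 comparisons share the same water pools, and with 3 arrays on each side an exact two-sided permutation test cannot give a p below 0.1, so that only limma's test is given. In low drinkers, 7 of 15 Hox probes tested passed an unadjusted p of 0.05 by limma, all higher, against 9.15% of 31833 probes (8.42% higher and 0.735% lower). None of the 15 passed after adjustment (lowest adjusted p = 0.0759), and 57 of all probes did (0.179%). The median difference was 1.11, against 0.04 over all probes. That median was 1.84 without low drinker pool 1 (0.06 over all probes), 0.31 without pool 2 (0.02), 0.04 over the 6 Hox probes well above background on every array, and 0.01 with the slide as a fixed block. With quantile normalization 7 passed, 6 higher and 1 lower, and the share of higher probes among all those passing went from 92.0% to 49.3%.

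The Hox genes passing in low drinkers were Hoxb4 (2.59 ± 0.59, adjusted p = 0.203 by limma), Hoxa13 (1.65 ± 0.52, adjusted p = 0.481), Hoxb3 (1.46 ± 0.57, adjusted p = 0.514), Hoxa9 (0.28 ± 0.13, adjusted p = 0.545), both Hoxc10 probes (1.68 ± 0.69, adjusted p = 0.522, and 1.53 ± 0.66, adjusted p = 0.539) and Hoxd10. Without low drinker pool 2 Hoxb4 (2.05) and Hoxa13 (1.01) passed. Hoxb3 was well above background in 1 water pool and in that low drinker pool alone, and no difference without it is given. Hoxa9 (0.17) and both Hoxc10 probes (0.89 and 0.80) did not, and Hoxd10 could not be tested. Of 11 Hox probes with a value on every array, 2 were higher in all low drinker than in all water pools (Hoxa13 and Hoxb4), against 6.89% of all such probes, and none was lower, against 2.16%. Of the 6 Hox probes detected on all 12 arrays 2 passed, both higher, against 6.42% of all such probes (0.759% lower). Hoxd10, a gene of the lumbar cord and limbs, had signals of 11.1, 14.0 and 14.3 in the water pools, none of them well above background, and 13.6, 124 and 50.4 in low drinkers. Low drinker pool 1 was level with water. Water pool 1 and low drinker pool 1 were below noise and out of its fit, which gave an adjusted p of 0.0759 by limma. The mean of all 3 low drinker pools was 1.71-fold above the bound for water, but only 1 of them was well above background.

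These counts turned on single low drinker arrays. Without low drinker pool 2, 4 of 13 Hox probes passed, 3 higher and 1 lower, against 3.64% of 30436 probes. Without pool 1, 10 of 15 passed, 8 of them after adjustment, against 20.5% of 30777 probes, 2506 of which passed after adjustment. Without pool 3, 3 of 13 passed, against 5.51%. Without water pool 1, 2 or 3, between 3 and 4 passed. With no spot removed for low signal, all 50 probes could be tested and 29 passed, all higher, against 13.9% of all probes, but 6 passed without low drinker pool 2, against 3.76% of all probes. On slide 1 alone, low drinker pool 1 differed from water by 0.26 for Hoxa13, -0.27 for both Hoxc10 probes and 1.16 for Hoxb4, each the difference of 1 array from 3. In the hindbrain and spinal cord list, 3 of 9 tested genes passed on the higher side in low drinkers, against 8.42% of all probes. These were Phox2a, Tph2 and En1, none of which was well above background in any low drinker pool, En1 in no pool at all, so that no level is given for them. The list's part in the Hox values was not tested.

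In early high drinkers, 2 of 16 Hox probes tested passed, both higher, against 4.8% of all probes (2.93% higher and 1.87% lower), and none after adjustment (lowest adjusted p = 0.886). The share of higher probes among all those passing was 61.0%, and 47.7% with quantile normalization. Hoxb4 differed by 1.57 ± 0.59 (adjusted p = 0.886 by limma). Hoxd10 had signals of 28.8, 31.4 and 31.6, above all 3 water pools, with water pool 1 out of the fit (adjusted p = 0.886 by limma). Its mean was 1.15-fold above the bound for water, but only 1 of these early high drinker pools was well above background. With a value on every array, 5 of 11 Hox probes were higher in all early high drinker than in all water pools (Hoxa13, Hoxb3, Hoxb4 and both Hoxc10 probes), against 10.8% of all such probes, and none was lower, against 5.58%. The count passing the test was 1 without water pool 1 or early high drinker pool 3, none without water pool 2, and 5 or 6 without low drinker pool 1 or 2, where only the shared spread changed. No early high drinker shared a slide with a water pool. Through slide 2, where early high drinkers were below low drinkers for Hoxb4 by -2.13, the fit with the slide as a block gave -0.97, not passing, for Hoxb4 in early high drinkers against water. Without the block 13 of 16 Hox probes were above 0, with a median of 0.35. With it 5 of 16 were above 0, with a median of -0.75, and 3 passed, none of them higher.

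In late high drinkers, 3 of 15 Hox probes passed, against 15.7% of all probes (6.83% higher and 8.88% lower), and none after adjustment (lowest adjusted p = 0.109). Hoxc4 differed by -0.55 ± 0.11 (adjusted p = 0.109 by limma), a 1.46-fold lower level, and Hoxa3 by -0.45 ± 0.10 (adjusted p = 0.118), a 1.37-fold lower level. For both, all 3 late high drinkers were below all 3 water pools. Over all probes with a value on every array, 13.5% were lower in the same way. Hoxb4 differed by 1.71 ± 0.59 (adjusted p = 0.215), and its late high drinkers were all above water, as were those of Hoxa13 and both Hoxc10 probes, which did not pass, and 12.5% of all such probes. The Hox count was 7 without low drinker pool 1, which changes only the shared spread. Among probes detected on all 12 arrays, 2 of 6 Hox probes passed, both lower, against 18.9% of all such probes (10.4% lower).

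All water pools were on slide 1 and all late high drinkers on slide 3, so that slide and group cannot be told apart in this comparison. Linked through the low and early high drinkers, the fit with the slide as a fixed block gave -0.62 for Hoxa3, -0.20 for Hoxc4, which no longer passed, and -1.63 for Hoxb4, which passed in the opposite direction. Without the block 7 of 15 Hox probes were above 0, with a median of -0.02. With it 2 of 15 were above 0, with a median of -1.09, and 4 passed, none of them higher. Blood cell genes were lower in the same pools. 5 of 9 passed, all lower, against 8.88% lower among all probes, among them Hba-a1 (-0.71, adjusted p = 0.144 by limma) and Hbb-b1 (-0.48, adjusted p = 0.238), and the summed level of the 9 genes was 122 to 149 in water and 75.7 to 103 in late high drinkers. Of the hindbrain and spinal cord list, 2 of 9 genes tested were lower in late high drinkers (Glra1, by -0.26, and Phox2a, which was well above background in no late high drinker pool), none was higher, and the median was -0.26, beside the same 8.88%. The part of either list in the Hox values was not tested.

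**Figure D5:**
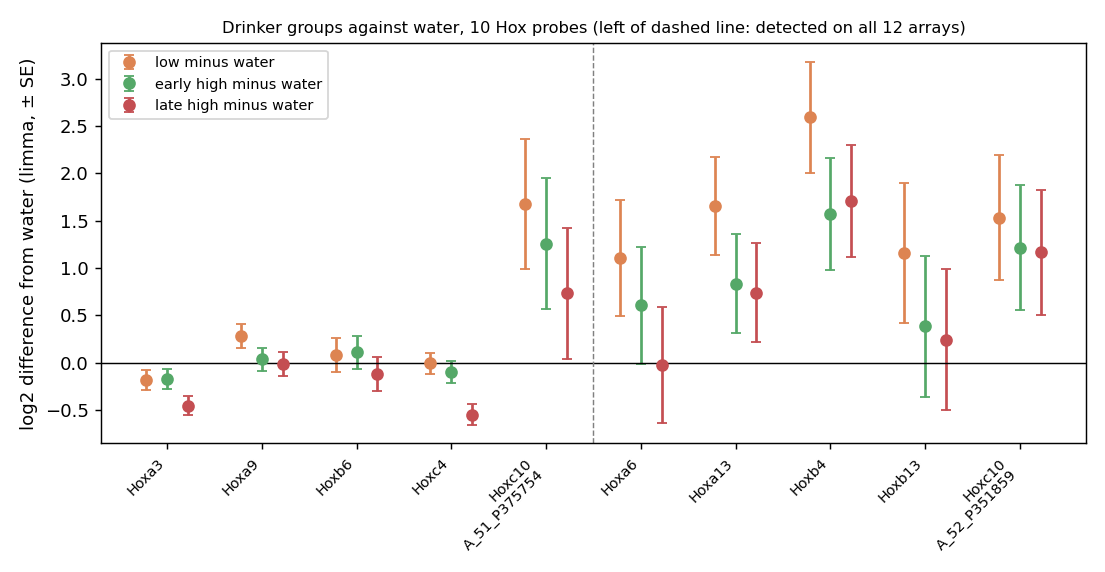
Log2 differences from water in each kind of drinker for 10 Hox probes detected on at least 9 arrays, as limma estimates ± SE. Probes left of the dashed line were detected on all 12 arrays. Hoxc4 and Hoxa3 are lowest in late high drinkers (-0.55 and -0.45), and Hoxb4 is above 0 in each group, at 2.59, 1.57 and 1.71.

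Among the drinkers, high was set against low alcohol intake, 6 arrays against 3. All 16 Hox probes tested were lower in high drinkers, with a median of -0.83, against -0.06 over all probes, and 65.5% of all probes were lower. Without low drinker pool 2, 3 of the 13 that could be tested were higher and the median was -0.07. Without pool 1 it was -1.34, without pool 3 it was -0.49, and over the 6 Hox probes well above background on every array -0.20. 6 passed an unadjusted p of 0.05 by limma, against 15.5% of all probes (3.31% higher and 12.2% lower), and none after adjustment (lowest adjusted p = 0.0792), where 24 of all probes passed (0.0747%). Of 11 Hox probes with a value on every array none was separate between the groups, against 1.66% of all such probes higher and 2.96% lower. The 6 were Hoxd10 (-1.96 ± 0.33, adjusted p = 0.0792 by limma), Hoxa2 (-1.78 ± 0.37, adjusted p = 0.176), Hoxc4 (-0.32 ± 0.10, adjusted p = 0.201), Hoxa9 (-0.27 ± 0.11, adjusted p = 0.282), Hoxa7 (-0.84 ± 0.33, adjusted p = 0.284) and the dim Hoxb6 probe (adjusted p = 0.223), for which low drinkers had no value well above background and no fold is given. Low drinker pool 1 was below noise and out of the fit for Hoxd10, Hoxa2 and Hoxb6, so that their values rest on the other low drinker pools. Over all 9 arrays of drinkers the difference was -1.06 for Hoxd10 and -0.97 for Hoxa2, each well above background in 1 low and 1 high drinker pool. Low drinker pool 2 was the only low drinker pool well above background for Hoxd10, Hoxa2 and Hoxa7, and no difference without it is given for them. Without that pool Hoxc4 passed (-0.33) and Hoxa9 (-0.16) did not.

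This count rested on the low drinker pools as well. It was 1 of 13 without low drinker pool 2, against 8.99% of all probes, and 1 of 13 without pool 3, against 10.9%. Without pool 1 it was 13 of 16, with 6 after adjustment, against 25.3% of all probes, 2507 of which passed after adjustment. It was 3 without early high drinker pool 2 or late high drinker pool 1 or 2. With quantile normalization 3 passed, and the share of higher probes among all those passing went from 21.4% to 55.8%. With no spot removed for low signal 22 of 50 passed, all lower, against 20.2% of all probes, and 4 passed without low drinker pool 2, against 7.07%. No low and late high drinkers shared a slide. On slide 2, early high drinkers were below low drinkers by -1.43 for Hoxd10 and -1.78 for Hoxa2, and Hoxc4 differed by 0.02.

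Late high drinkers were also set against early high drinkers, 3 arrays against 3. Of 19 Hox probes tested, 18 were lower in late high drinkers, and 5 passed, all lower, against 12.1% of all probes (4.14% higher and 8% lower), with none after adjustment (lowest adjusted p = 0.324). The share of higher probes among all those passing was 34.1%, and 46.3% with quantile normalization, where 8 of 19 Hox probes were higher. Hoxc4 differed by -0.45 ± 0.11 (adjusted p = 0.324 by limma) and Hoxa3 by -0.28 ± 0.10 (adjusted p = 0.359), and for both the late high drinkers were all below the early high drinkers, as were 13.1% of all probes with a value on every array, where 8.46% were higher. These were also the 2 of 6 passing among Hox probes detected on all 12 arrays, against 14.5% of all such probes (8.9% lower). For Hoxd10 (adjusted p = 0.354 by limma) no late high drinker was well above background. The mean of the early high drinkers, of which 1 was well above background, was 1.34-fold above the bound for late high drinkers. The others were the dim Hoxb6 probe (-0.92 ± 0.36, adjusted p = 0.394) and 1 Hoxa4 probe (adjusted p = 0.354), which was not well above background in either group and has no fold. On slide 3, the late high drinkers were below early high drinker pool 3 by -0.37 for Hoxa3 and -0.24 for Hoxc4, and with the slide as a block Hoxa3 passed and Hoxc4 did not. The count was 2 or 3 without any 1 of the early high drinker pools or without late high drinker pool 1 or 2.

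Genes that act with Hox proteins were mostly detected on all arrays, and few passed in alcohol against water. All 9 TALE cofactors were detected on all 12 arrays, and 1 passed, against 5.53% of all probes, namely Pknox1, which was lower by -0.19 ± 0.07 (adjusted p = 0.819 by limma). The median of the 9 was 0.01. Of 14 genes for the supply, breakdown and receptors of retinoic acid, 11 were detected on all 12 arrays and Rara and Crabp2 on none, and none of the 12 tested passed (median 0.08). Aldh1a1, which makes retinoic acid, ranged from 5466 to 12372, and Cyp26b1, which degrades it, from 361 to 1004. In late high drinkers against water 1 of the 12 passed, on the higher side, against 6.83% higher among all probes. This was Rxra, a retinoid receptor (0.43 ± 0.11, adjusted p = 0.127 by limma). The comparisons among drinkers are not given for this list.

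All 26 chromatin regulators of Hox clusters on the array, with the Polycomb genes Ezh2, Eed, Suz12 and Ring1 and the trithorax genes Kmt2b, Men1 and Wdr5 among them, were detected on all 12 arrays. None passed in alcohol against water (median 0.02). In late high drinkers against water 5 of the 26 passed, all higher, namely Cbx7 (0.29 ± 0.08, adjusted p = 0.159 by limma), Phc2, Cbx2, Ring1 and Wdr5, against 6.83% higher among all probes, and none did after adjustment. The first 4 of these encode Polycomb proteins. Of the 10 ParaHox, Cdx and hindbrain regulators, 4 were detected on all 12 arrays, among them Gsx1 and Gbx2. Gsx2, Pdx1, Cdx1 and Cdx4 were detected on none and Cdx2 on 1, and none of the 5 genes tested passed.

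Of 13 genes that flank the Hox clusters, 12 were detected on all 12 arrays, and 2 passed in alcohol against water, both higher, against 3.85% higher among all probes, with a median of -0.01. Atp5g3, a subunit of the mitochondrial ATP synthase beside the Hoxd cluster, differed by 0.18 ± 0.08 (adjusted p = 0.819 by limma). Evx1, a homeobox gene next to Hoxa13, had signals of 30.3, 19.6 and 17.7 in the water pools, 15.2, 167 and 90.4 in low drinkers, 60.1, 68.5 and 65.2 in early high drinkers, and 40.7, 60.4 and 42.1 in late high drinkers. No water pool was well above background, and 8 of 9 alcohol pools were above all water pools, low drinker pool 1 being the lowest array. The mean of all 9 alcohol pools was 2.09-fold above the bound for water, and the test (adjusted p = 0.819 by limma) left out low drinker pool 1. In low drinkers the mean of all 3 pools was 2.38-fold above that bound. The adjusted p of 0.024 by limma came from pools 2 and 3 alone, both on slide 2. It left out the lowest array and does not stand for all 3 pools.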

How the data were processed

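Per the file headers, Agilent Feature Extraction (version 10.5.1.1) made the deposited signal intensity of each spot, linear and background-corrected, without any step that made arrays comparable. The series matrix, which the authors also deposited, holds signal intensity per probe. Both are Cy3 signals, and how many reads or molecules lie behind a value does not apply: the number of arrays limits the precision.

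Here, log2 intensities were taken from the deposited intensity, and log2 of each array's 75th percentile over its non-control spots was subtracted. Spots flagged as non-uniform were set to missing, as were those with a signal under 2 times their error, and spots of a probe were averaged. The test of alcohol against water needed values on 2 water and 5 alcohol arrays or more, and the other tests on 2 of the 3 arrays per group. limma 3.58.1 (R 4.3.3; lmFit and eBayes, Benjamini-Hochberg adjustment over all probes) gave each test, and single genes were also tested by exact permutation. Replicates are pools that the labels do not tie to separate cultures or litters, so p-values measure the spread between these pools. The exact permutation takes all arrays as interchangeable, without regard to slide or scan day. Where no array of a group was well above background for a probe, only a bound is given, set from the lowest well-above-background signal of each of its arrays or from the probe's own signal where that was higher. The mean of the other group took in all its arrays, also those not well above background. A fold against a bound is therefore no strict lower limit. The same-numbered arrays of different groups had deviations that correlated between -0.0893 and 0.183 (median -0.001), so the numbers pair no samples.

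The members and gene lists (Hox cofactors, retinoic acid, chromatin regulators, flanking genes, ParaHox, Cdx and hindbrain regulators, and markers of hypothalamus, hindbrain and spinal cord, blood, pituitary, choroid plexus and meninges, connective tissue and muscle) were chosen with earlier results of these data known. Some genes are not reported here by name. Every array is given for the other Hox genes with a probe detected on at least 9 of 12 arrays, with an unadjusted p under 0.05 in alcohol against water, or with no overlap there, and Hoxb4 in any case. Hox genes with an unadjusted p under 0.05 in another comparison, and up to 3 genes per list in alcohol against water, are named. Of the lists, not every gene passing in another comparison is named or given with a value. A gene of a list stands by the probe with the highest mean. Symbols and positions (mm9) are those of the array files, and accessions were matched to the RefSeq gene table of GRCm38.p6. Alternatives covered the scaling, the background (normexp, offset 50), the filters, the deposited table, slide and replicate number as blocks, the test, the probe and each array left out. The steps were tested on simulated data. Figures were drawn with matplotlib 3.10.9.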

Additional observations from a re-analysis of the deposited data

Results flagged for a closer look

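Among the 9 alcohol arrays, the gap between the highest array and the next one, as a share of the whole range, was beyond the critical value of Dixon's test for 4 of the 15 Hox probes tested in alcohol against water, and each time the highest array was low drinker pool 2. Chance gives about 1 in 20 groups such a gap at either end, but probes of 1 array are not independent. Among 32290 probes tested in that comparison and with a signal on every array, 11.25% had such a gap at either end, 8.22% at the high end, and 6.05% at the high end with low drinker pool 2 as the highest array. The share was 0.705 for Hoxb3, a gene of the hindbrain, with a scaled log2 signal of -2.90 on that array and -4.90 on the next. It was 0.529 for Hoxa7 (-4.29 and -5.35), 0.527 for Hoxa6 (-2.66 and -4.24) and 0.517 for Hoxb13 (-2.99 and -4.74). The lower quartile of the signal of all probes was also highest on this array (61.6), and its part in these values was not tested.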

How the results depend on the processing

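Counts are Hox probes with an unadjusted p under 0.05 by limma. Alcohol against water (4 of 15) gave 2 of 6 over probes well above background on every array, 1 with the slide as a random block, 0 with it as a fixed block, 4 of 50 with no low-signal mask (4.77% of all probes), and 8 of 50 (6.45%) with no mask and without low drinker pool 2. Low drinkers against water (7) gave 2, 3 and 2 under the same first 3 settings and 29 of 50 with no mask. Early high drinkers (2, both higher) gave 3, none higher, with the fixed block, 0 over probes detected on every array, 1 with the random block and 1 of 50 with no mask. High against low (6) gave 2 over probes detected on every array, 3 with quantile normalization and 22 with no mask. Late against early (5) gave 2 over those probes, 2 with the fixed block, and 3 each with quantile normalization and no mask. The filter on every array for all but the first comparison, and the mask without pool 2, were chosen after seeing the data. With 1 array left out, the counts ran from 1 to 6 for alcohol, 3 to 10 for low, 0 to 6 for early high and 2 to 7 for late high drinkers against water, 1 to 13 for high against low and 2 to 6 for late against early. After adjustment they ran from 0 to 8 for low drinkers against water and 0 to 6 for high against low, in both without low drinker pool 1, and were 0 for the other comparisons. With the replicate number as a block the counts were 4, 8, 2, 4, 7 and 6, with no Hox probe passing after adjustment, so that it changed no count by over 1.5 times. Over all probes with that block, 11 passed after adjustment in low drinkers against water, against 57.

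Of single probes in alcohol against water, the slide as a fixed block reversed Hoxa6 (-0.36), Hoxb13 (-0.51), Hoxc4 (0.0095) and both Hoxc10 probes (-0.27 each), the last also in low drinkers against water (-0.27 each), and it reversed Hoxb4 in early (-0.97) and late high drinkers (-1.63). Quantile normalization took Hoxa9 to -0.0041 and normexp took the bright Hoxb6 probe to -0.0053. Leaving out early high drinker pool 1, water pool 2 or water pool 1 took that probe to -0.0331, -0.045 or -0.0367, and its values with 1 array left out reached 0.1535, without water pool 3. The cause of these moves was not tested. Signal over background limits the Hox probes, of which 22 of 50 were detected on no array and 6 of 50 on all 12.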

Other observations

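Of 6 pituitary genes, 3 were detected on all 12 arrays and none passed in alcohol against water (median -0.27). Their summed level ran from 3.28 to 12.4 in water and from 0.951 to 3.40 in early high drinkers, and Prl was lower in late high drinkers than in water by -3.71 ± 1.51 (adjusted p = 0.284 by limma), with detection in 2 pools of each. Of 7 choroid plexus genes, none passed in alcohol against water (median -0.28) and 2 of 7 were lower in late high drinkers, against 8.88% of all probes. Of 12 genes of meninges, connective tissue and muscle, 10 were detected on all 12 arrays, Ckm and Myog on none, and none of 11 tested passed (median 0.09). Of 9 blood cell genes, Ptprc was lower in alcohol mice by -0.21 ± 0.08 (adjusted p = 0.819 by limma) and Cd3e was higher in low drinkers by 0.73 ± 0.11 (adjusted p = 0.0394). Among hypothalamic genes Rax, a homeobox gene of tanycytes, was higher in alcohol mice by 0.78 ± 0.23 (adjusted p = 0.819 by limma). Tph2, the serotonin-making enzyme of the raphe, passed as well (adjusted p = 0.819) but was well above background in no water pool, and no fold is given.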
